A study of Mus musculus with 27 samples.

Results

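A set of 10 genes of cell cycle arrest and the p53 response were followed through 9 time points of osteoblast differentiation in culture. They were taken from a fixed list of symbols, which was chosen with earlier results of these data known. Each of them was found among the 37991 genes of the series. They comprised the CIP/KIP inhibitors Cdkn1a and Cdkn1b, the INK4 inhibitors Cdkn2a, Cdkn2b and Cdkn2c, the p53 gene Trp53 with its target genes Mdm2 and Ccng1, and the D-type cyclins Ccnd1 and Ccnd2.

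The cells came from the calvariae of neonatal C57BL/6J-Col3.6 CFP mice, 5 to 9 days old. Every library carried the same transgene, a cyan fluorescent protein driven by the Col3.6 promoter fragment of collagen type I, and cells expressing it were sorted after 4 days of growth and returned to culture in medium with ascorbic acid and beta-glycerol phosphate. RNA was sampled on days 2, 4, 6, 8, 10, 12, 14, 16 and 18, with 3 profiles a day (27 in all), and no untreated control is among the samples analysed here, so the time points were compared with each other. The labels give neither the number of mice nor whether the time points were separate cultures.

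Progression from G1 into S phase is driven by cyclin-dependent kinases (CDKs), which D-type and E-type cyclins activate so that the retinoblastoma proteins are phosphorylated and E2F factors released. CIP/KIP proteins bind cyclin and kinase complexes broadly, whereas INK4 proteins bind Cdk4 and Cdk6 and keep D cyclins from them. The transcription factor p53 switches on Cdkn1a, Ccng1 and Mdm2, and Mdm2 in turn ubiquitinates p53, which is controlled mainly at the level of its protein, a quantity that RNA does not show. Osteoblasts in culture first divide and then leave the cell cycle as they lay down matrix.

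The paper describes the 3 profiles of a day as triplicate samples. They carried 1 barcode, differed in sequencing lane and agreed within sampling noise over 9352 to 10045 genes (chi-square per degree of freedom 0.999 to 1.02), so they were summed to 1 library a day of 22470195 (day 10) to 62009157 (day 12) counts. A p-value here therefore measures the scatter of 9 libraries around a line or curve in day, not the spread between cultures. Across all 15659 genes tested, 8510 followed a straight line in day (54.3%; edgeR quasi-likelihood test, Benjamini-Hochberg adjusted p under 0.05), with 28.3% of genes tested rising and 26.1% falling. Osteoblast markers were present, and 6 of 9 rose along the line, among them Bglap, which encodes osteocalcin (1.24 TPM on day 2 and 208 TPM on day 18), and Ibsp, which encodes bone sialoprotein (0.581 and 78.4 TPM). The osteoblast transcription factor gene Sp7 was at 32.3 TPM on day 2, 2.77 on day 8 and 10.6 on day 18 (line -1.23, SE 0.83, adjusted p = 0.233, and spline adjusted p = 1.16e-05, by edgeR), and Spp1, which encodes osteopontin, peaked on day 6 at 1012 TPM (line -1.17, SE 0.54, adjusted p = 0.0932, and spline adjusted p = 0.000421, by edgeR). The marker gene Alpl was at 9.13 TPM on day 2, 0.467 on day 6 and 17.6 on day 18 (line 2.22, SE 1.22, adjusted p = 0.146, and spline adjusted p = 0.00742, by edgeR). Markers of other cell types rose too: the summed level of 7 macrophage markers was 24.1 to 61.7 TPM on days 2 to 6 and 522 to 2014 TPM on days 14 to 18 (6 of 7 rose, most of all Emr1 and Lyz2), that of 5 adipocyte markers was 3.21 to 7.44 and then 188 to 407 TPM (5 of 5 rose, most of all Cfd and Adipoq), and that of 5 osteoclast markers was 37.2 to 85.6 and then 204 to 215 TPM (Acp5 and Ctsk rose), with Calcr and Tm7sf4 at 0 in every library. Of the 4 endothelial markers, Tek and Cdh5 rose, and Pecam1 (68 counts over the series) was too low to test. The fourth, Kdr, fell from 1.16 TPM on day 2 to 0.155 on day 18 (line -3.27, SE 1.07, adjusted p = 0.0249 by edgeR). Together the 4 endothelial markers summed to at most 12.0 TPM, and the 4 mast cell markers to at most 1.76 TPM, with Mcpt4 and Tpsb2 at 0. These changes ran alongside every change with day given below, and their part in it was not tested.

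Of the 10 genes, 8 followed day in the line, 6 of them downwards and 2 upwards, beside the 54.3%, 26.1% and 28.3% of all genes given above. Their median fitted change from day 2 to day 18 was -0.70 on the log2 scale, and that of all genes tested was 0.05. A natural spline (3 degrees of freedom), which also finds genes that rise and then fall, called 9 of the 10, beside 57.5% of all genes. Levels are given below as TPM, the transcript abundance out of a fixed total per profile, scaled to the upper quartile of that profile, which may be compared between genes because they are per length, and fitted changes are log2 changes of counts along the line from day 2 to day 18 with their standard error. In a culture of mixed cells, fewer cells of a type and less RNA per cell cannot be told apart. The largest single step in TPM between neighbouring days fell between days 8 and 10 for Cdkn1a, Mdm2, Ccng1, Trp53, Ccnd1 and Ccnd2, and was downward for each of them. The share of all genes with their largest step there was not counted, and day 10 was the library with the fewest counts. Whether the step is particular to these genes was therefore not tested.

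**Figure D1:**
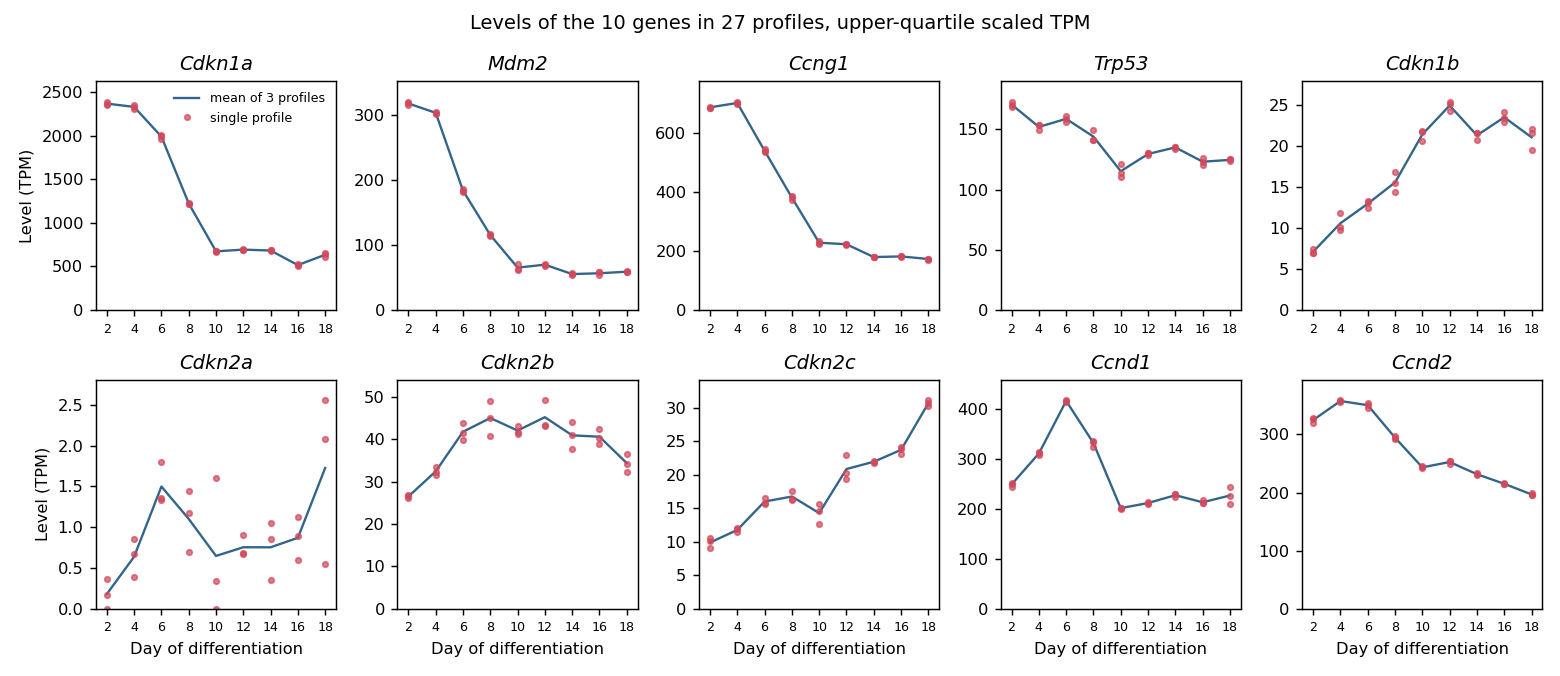
Level of each of the 10 genes (y axis, upper-quartile scaled TPM) by day of differentiation (x axis), with 1 point per profile and a line through the mean of the 3 profiles of a day. Cdkn1a, Mdm2 and Ccng1 were at or near their highest level on days 2 and 4 and low from day 10, whereas Cdkn1b and Cdkn2c were lowest on day 2, and profiles of a day lie close together except for Cdkn2a.

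The p53 protein recognises a response element near many of its target genes, and the sequences that match its consensus are shown for each of the 10 genes that held one. The p53 consensus is a pair of 10-base parts, each of purines, C, A or T bases, G and pyrimidines. It was searched for without a spacer, with the C and G of each part required and at most 2 mismatches elsewhere, over 3000 bases either side of the start of each gene in the NCBIM37 assembly. Because the consensus reads alike on both strands, 1 strand was searched. Of the 10 genes, 3 held a match, each with 1 mismatch, whereas 216 of 22380 protein-coding genes (0.965%) held one with at most 1 mismatch and 5.94% one with at most 2. The bases of the match are in capitals, written in the direction of the gene, and distances run from the gene start to the first of them:
Cdkn1a, 51 bases before the gene start, outside the gene, chr17:29227873-29227892, + strand: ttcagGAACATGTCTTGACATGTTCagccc
Ccng1, 170 bases before the gene start, outside the gene, chr11:40568964-40568983, - strand: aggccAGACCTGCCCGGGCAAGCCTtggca
Ccng1, 356 bases after the gene start, in an intron, chr11:40568438-40568457, - strand: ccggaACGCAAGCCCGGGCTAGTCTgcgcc
Cdkn2b, 2613 bases after the gene start, in an intron, chr4:88954309-88954328, - strand: tacttAGACATGTCCGGTCTTGCTCagcca

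The best window of Mdm2 had 3 mismatches, so that Mdm2, which fell the furthest of the 10 genes, held no match within this distance by this rule. A match is a description of the letters and not a site of binding, which was not measured here, and the lack of one says nothing of p53 at that gene. Among 26 other p53 target genes, 1 (3.85%) held a match with at most 1 mismatch and 7 (26.9%) one with at most 2. In the RefSeq promoters of the GRCm38.p6 assembly, which run from 250 bases before to 50 bases after a start, 22 of 32851 (0.067%) held a match with at most 1 mismatch. Those of Cdkn1a and Ccng1 were the only matching ones among 11 promoters of 8 of the 10 genes, and are shown with the match in capitals as the sequence that leads into the first exon of each:
Cdkn1a promoter, chr17:29090729-29091028 of GRCm38.p6, + strand: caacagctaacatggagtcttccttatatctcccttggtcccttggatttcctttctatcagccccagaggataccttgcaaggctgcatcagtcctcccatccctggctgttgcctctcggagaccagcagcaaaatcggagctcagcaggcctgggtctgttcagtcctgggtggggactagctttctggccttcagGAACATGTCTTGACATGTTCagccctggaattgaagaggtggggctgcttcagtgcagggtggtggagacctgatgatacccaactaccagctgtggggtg
Ccng1 promoter, chr11:40755237-40755536 of GRCm38.p6, - strand: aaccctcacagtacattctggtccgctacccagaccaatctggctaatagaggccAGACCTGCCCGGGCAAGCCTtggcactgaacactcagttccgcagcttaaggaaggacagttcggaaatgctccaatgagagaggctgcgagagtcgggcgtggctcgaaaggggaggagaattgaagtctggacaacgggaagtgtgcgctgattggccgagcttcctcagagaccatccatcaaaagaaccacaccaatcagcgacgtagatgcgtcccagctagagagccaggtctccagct

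Cdkn1a (ENSMUSG00000023067, chr17:29227924-29237667, + strand) encodes p21, the CDK inhibitor through which p53 halts the cell cycle. By TPM it was the most abundant of the 10 genes on every day, with a mean of 1234 TPM ± 778 (SD over 9 days). On day 2 it ranked 29 by TPM among all genes of the series. This order rests on the transcript lengths given at the end of this paragraph. In counts over the series, which are not per length, Cdkn1a (201698) was below Ccnd2 (362813), Ccng1 (290758) and Ccnd1 (217689). Its level was 2368 TPM on day 2, 2330 at day 4, 1989 at day 6, 1223 at day 8, 673 at day 10, 693 at day 12, 683 at day 14, 516 at day 16 and 634 at day 18. Most of the fall came before day 10, and the levels of days 2 to 6 lay far above those of days 14 to 18 without overlap. On the log2 scale the level fell by 1.81 between days 2 and 10 and by 0.09 between days 10 and 18. The line gave a log2 change of -2.50 (SE 0.29, Benjamini-Hochberg adjusted p = 0.000105 by edgeR), and the 5.65-fold fall it implies exceeds the 3.73-fold ratio of the day 2 to the day 18 level. The profile bends, and the scales differ as well. The line was fitted to counts, which stood at 1094 CPM (counts over a fixed library total) on day 2 and 249.6 CPM on day 18, whereas the ratio is of TPM. The part of each in the gap was not tested. By day 8, when the level was 0.516 of that of day 2, the summed markers stood at 68.1 TPM (macrophage), 6.51 TPM (adipocyte), 98.0 TPM (osteoclast) and 3581 TPM (osteoblast), against 24.1, 7.44, 37.2 and 2018 TPM on day 2, and their part in the fall was not tested. The gene start in the annotation is that of a transcript of 748 bases, behind the match shown above, and the start of the longest transcript (1910 bases) lies at position 29230717. The mean transcript length behind the TPM was 916 to 950 bases, so the level rests mainly on reads that were assigned to the shorter transcripts.

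Mdm2 (ENSMUSG00000020184, chr10:117125944-117147814, - strand), the ubiquitin ligase that p53 induces and that degrades p53, had the largest fitted change of the 10 genes. Its level was 318 TPM on day 2, 303 at day 4, 184 at day 6, 115 at day 8, 65.2 at day 10, 69.8 at day 12, 55.3 at day 14, 56.6 at day 16 and 59.0 at day 18. It dropped further by day 6 than Cdkn1a did and was nearly flat from day 10. The log2 change was -2.92 (SE 0.35, Benjamini-Hochberg adjusted p = 0.000118 by edgeR), and the day 2 level was 5.39 times that of day 18. RSEM divided some of its reads with other genes, which left counts that were not whole in 10 of the 27 profiles.

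Ccng1 (ENSMUSG00000020326, chr11:40562054-40568813, - strand) encodes cyclin G1, a p53 target that recruits a phosphatase to Mdm2 and is no driver of the cell cycle like the other cyclins here. Its level was 686 TPM on day 2, 701 at day 4, 539 at day 6, 381 at day 8, 228 at day 10, 223 at day 12, 179 at day 14, 182 at day 16 and 173 at day 18. Between days 10 and 18 it fell by 0.40 on the log2 scale, whereas Mdm2 fell by 0.15 over the same days. The fitted log2 change was -2.45 (SE 0.23, Benjamini-Hochberg adjusted p = 4.04e-05 by edgeR), and the day 2 level was 3.97 times that of day 18.

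Trp53 itself (ENSMUSG00000059552, chr11:69393861-69405375, + strand), the gene of p53, moved far less. Its level was 171 TPM on day 2, 152 at day 4, 159 at day 6, 144 at day 8, 115 at day 10, 130 at day 12, 135 at day 14, 123 at day 16 and 125 at day 18. The lowest day in TPM, day 10, was thus not the last, and the day 2 level was 1.37 times that of day 18. In CPM the lowest library was day 16 (112.8), with 178.2 on day 2, 116.2 on day 10 and 113.9 on day 18, so the low point depends on the scale. The log2 change was -0.55 (SE 0.12, Benjamini-Hochberg adjusted p = 0.00311 by edgeR), and days 2 to 6 (152 to 171 TPM) did not overlap days 14 to 18 (123 to 135 TPM). The spline called it too (adjusted p = 0.00361 by edgeR), but not without day 2 (adjusted p = 0.0593 by edgeR).

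Each of the 3 target genes fell relative to Trp53, in ratios picked with the levels in view. In TPM, the level of Cdkn1a was 13.9 times that of Trp53 on day 2 and 5.09 times on day 18. The slope over the 16 days was -1.96 log2 units (SE 0.29, exact permutation test over the order of the 9 libraries, two-sided, p = 0.000243, Benjamini-Hochberg adjusted over 8 ratios p = 0.000584). The ratio of Mdm2 to Trp53 passed from 1.86 to 0.473 (slope -2.38, SE 0.37, exact permutation p = 0.000209, adjusted p = 0.000584), so that Mdm2 was the more abundant of the pair on days 2 to 6 and the less abundant from day 8. For Ccng1 the ratio to Trp53 went from 4.02 to 1.38 (slope -1.92, SE 0.23, exact permutation p = 0.000116, adjusted p = 0.000584). Ratios among the targets moved less: Cdkn1a over Mdm2 was 7.46 on day 2 and 10.8 on day 18 (slope 0.42, SE 0.21, exact permutation p = 0.0902, adjusted p = 0.103), and Ccng1 over Mdm2 had a slope of 0.46 (SE 0.20, exact permutation p = 0.0593, adjusted p = 0.0791). Neither passed 0.05, which does not show that the 3 genes fell alike.

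**Figure D2:**
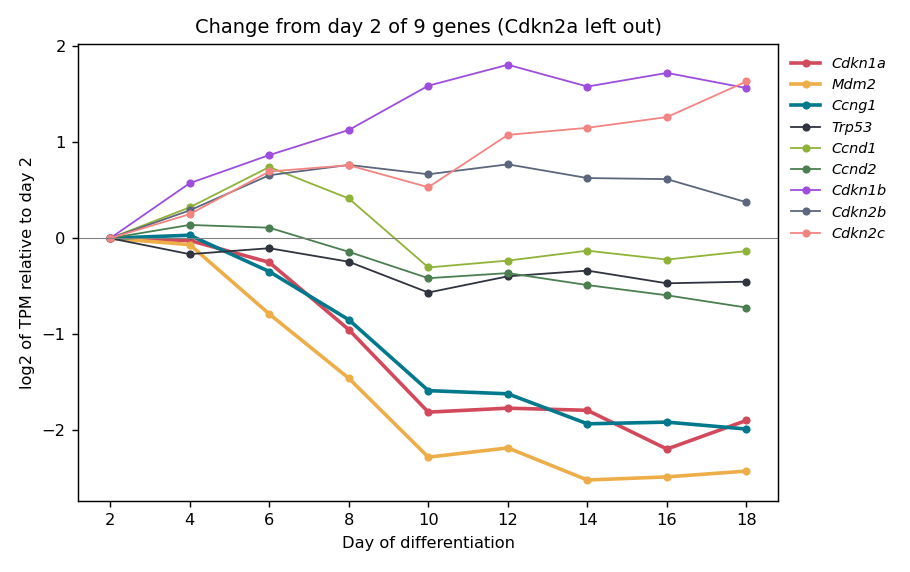
Change of 9 genes from day 2 (y axis, log2 of upper-quartile scaled TPM relative to day 2) by day of differentiation (x axis), 1 line per gene with a point per day. Cdkn2a is left out because its day 2 library held 3 counts. Mdm2, Cdkn1a and Ccng1 form a group below the rest from day 8, Trp53 stays within 0.57 log2 units of its day 2 level, and Cdkn1b and Cdkn2c lie above the rest at day 18.

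A list of 26 other p53 target genes gave 17 that fell, 3 that rose and 6 that did not pass the test, with a median log2 change of -1.02. Of all genes tested, 26.1% fell and 28.3% rose, with a median of 0.05. Their summed level was 868 to 1014 TPM on days 2 to 6 and 521 to 545 TPM on days 14 to 18. The largest falls were those of Sfn, which encodes the cell cycle checkpoint protein 14-3-3 sigma (37.0 TPM on day 2 and 1.73 on day 18, log2 change -5.69, SE 0.92, Benjamini-Hochberg adjusted p = 0.000551 by edgeR), and Pmaip1, which encodes the pro-apoptotic protein Noxa (18.0 and 1.67 TPM, -4.12, SE 0.34, adjusted p = 2.04e-05). Genes of apoptosis were also among those that fell, with Bax at -2.21 (SE 0.19) and the death receptor gene Tnfrsf10b at -2.58 (SE 0.18). Others were not called by the line, such as Bbc3 (-0.66, SE 0.33, adjusted p = 0.113 by edgeR) and the death receptor gene Fas. Fas was at 7.85 TPM on day 2 and 14.0 on day 18 (0.45, SE 0.21, adjusted p = 0.0965, and spline adjusted p = 0.0451, by edgeR). The list did not move as one: Gadd45a, a growth arrest and DNA damage gene, rose from 4.33 to 27.2 TPM (2.40, SE 0.20, adjusted p = 2.3e-05), Sesn1, a sestrin that restrains mTOR signalling, rose from 7.29 to 36.7 TPM (2.50, SE 0.37, adjusted p = 0.000329), and the nucleotide excision repair gene Xpc rose by 1.22 (SE 0.19). Most of these genes have inducers besides p53, whose activity was not measured here.

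**Figure D3:**
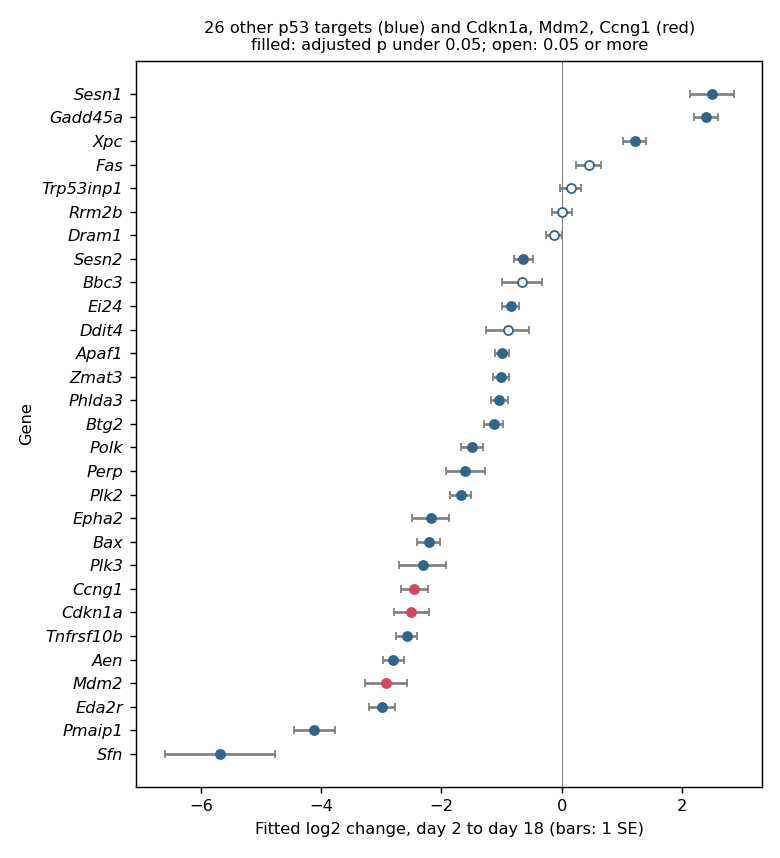
Fitted log2 change from day 2 to day 18 (x axis, points with bars of 1 SE, edgeR line in day) of 26 other p53 target genes in blue and of Cdkn1a, Mdm2 and Ccng1 in red (y axis, genes sorted by change). Filled points had an adjusted p under 0.05. The 3 red genes lie among the larger falls, Sfn, Pmaip1 and Eda2r lie further to the left than each of them, and Sesn1, Gadd45a and Xpc are the filled points to the right of 0.

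Among 13 regulators of p53, 5 fell, 1 rose and 7 did not pass the test (median log2 change -0.15), beside the 54.3% of all genes that were called. One of the 5, the kinase gene Atm, fell in counts (-0.70, SE 0.16, Benjamini-Hochberg adjusted p = 0.00392 by edgeR) but was higher in TPM on day 18 (15.8) than on day 2 (9.44), so its direction depends on the scale. The checkpoint kinase genes Chek1 (-1.81, SE 0.31, Benjamini-Hochberg adjusted p = 0.000783 by edgeR) and Atr (-0.91, SE 0.13, adjusted p = 0.000276) had the largest falls, and Hipk2, a kinase that phosphorylates p53, was the 1 that rose (0.81, SE 0.17, adjusted p = 0.00284). Mdm4, the partner of Mdm2 that also inhibits p53, was at 22.3 TPM on day 2, 45.3 TPM at its highest on day 8 and 28.6 TPM on day 18. It did not follow the line (0.08, SE 0.25, adjusted p = 0.814 by edgeR), but the spline called it (adjusted p = 0.0043 by edgeR).

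Cdkn1b (ENSMUSG00000003031, chr6:134870419-134875531, + strand) encodes p27, the CIP/KIP inhibitor that accumulates in resting cells and whose protein is set largely by its turnover. Its course was the opposite of that of Cdkn1a: the level was 7.11 TPM on day 2, 10.6 at day 4, 13.0 at day 6, 15.6 at day 8, 21.4 at day 10, 24.9 at day 12, 21.3 at day 14, 23.5 at day 16 and 21.1 at day 18. The rise was complete by day 12, and days 2 to 6 did not overlap days 14 to 18. The log2 change was 1.46 (SE 0.30, Benjamini-Hochberg adjusted p = 0.00217 by edgeR), with the day 18 level 2.96 times that of day 2. Even so, Cdkn1a stayed far above Cdkn1b, by 333-fold on day 2 and 30.1-fold on day 18 in TPM, and the ratio fell by 3.98 log2 units along the line (SE 0.64, exact permutation p = 0.000292, adjusted over the 8 ratios p = 0.000584).

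The third CIP/KIP gene, Cdkn1c, which encodes p57, was not among the 10 genes but had the largest rise of the other genes named as CDK inhibitors. It stood at 4.17 TPM on day 2, reached 267 TPM on day 12 and was at 167 TPM on day 18 (log2 change 5.62, SE 1.52, Benjamini-Hochberg adjusted p = 0.00978 by edgeR). The other 2 of that list fell: Cdkn2d, the INK4 gene for p19, from 11.3 to 6.63 TPM (-0.77, SE 0.24, adjusted p = 0.0219) and Cdkn3, a phosphatase of Cdk2 with high expression in dividing cells, from 10.7 to 3.44 TPM (-2.18, SE 0.58, adjusted p = 0.00911).

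The INK4 genes differed from each other. Cdkn2c (ENSMUSG00000028551, chr4:109333481-109339794, - strand), which encodes p18, was at 9.87 TPM on day 2, 11.8 at day 4, 16.0 at day 6, 16.7 at day 8, 14.3 at day 10, 20.8 at day 12, 21.9 at day 14, 23.7 at day 16 and 30.7 at day 18. In contrast with the genes above, most of its change came late, with 0.53 log2 units between days 2 and 10 and 1.10 between days 10 and 18. Its log2 change was 1.20 (SE 0.17, Benjamini-Hochberg adjusted p = 0.000275 by edgeR), and the last day was 3.11 times the first. The mean transcript length used for it was 1297 bases at most and 1207 at least, between transcripts of 1106 and 2471 bases.

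Cdkn2b (ENSMUSG00000073802, chr4:88952198-88956941, - strand), which encodes p15, the INK4 inhibitor that transforming growth factor beta induces, was highest in the middle of the series. Its level was 26.5 TPM on day 2, 32.4 at day 4, 41.8 at day 6, 45.1 at day 8, 42.1 at day 10, 45.3 at day 12, 41.0 at day 14, 40.6 at day 16 and 34.4 at day 18. The line found no change (0.21, SE 0.23, Benjamini-Hochberg adjusted p = 0.472 by edgeR), whereas the spline did (adjusted p = 0.00123), and the early days (26.5 to 41.8 TPM) overlapped the late ones (34.4 to 41.0 TPM). The ratio of Cdkn2b to Cdkn2c fell from 2.69 on day 2 to 1.12 on day 18 (slope -1.12, SE 0.27, exact permutation p = 0.00192, adjusted over the 8 ratios p = 0.00307). Without day 2 the sign of its fitted change turned (-0.08, adjusted p = 0.800).

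Cdkn2a (ENSMUSG00000044303, chr4:88920377-88940557, - strand), the neighbour of Cdkn2b, encodes p16 (Ink4a) and, from another first exon and reading frame, p19Arf, the inhibitor of Mdm2; a count per gene does not separate the pair. It was the rarest of the 10 genes, with 136 counts over the whole series. The libraries held 3 counts on day 2, 11 at day 4, 27 at day 6, 14 at day 8, 6 at day 10, 17 at day 12, 13 at day 14, 17 at day 16 and 28 at day 18. The intervals separate the first day from the last but do not order the days between: the 3 counts of day 2 gave 0.0710 CPM (counts over a fixed library total; exact 95% Poisson interval 0.0146 to 0.207, for counting error only) and the 28 of day 18 gave 0.630 (0.419 to 0.910), while the interval of day 10 (0.0980 to 0.581) overlapped both. The line gave 1.05 (SE 0.81, Benjamini-Hochberg adjusted p = 0.300 by edgeR) and the spline an adjusted p of 0.0742 (0.0180 without replicate 3 in the sums), so that a change of Cdkn2a was not called, on few counts and with a call that depended on the profiles used.

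**Figure D4:**
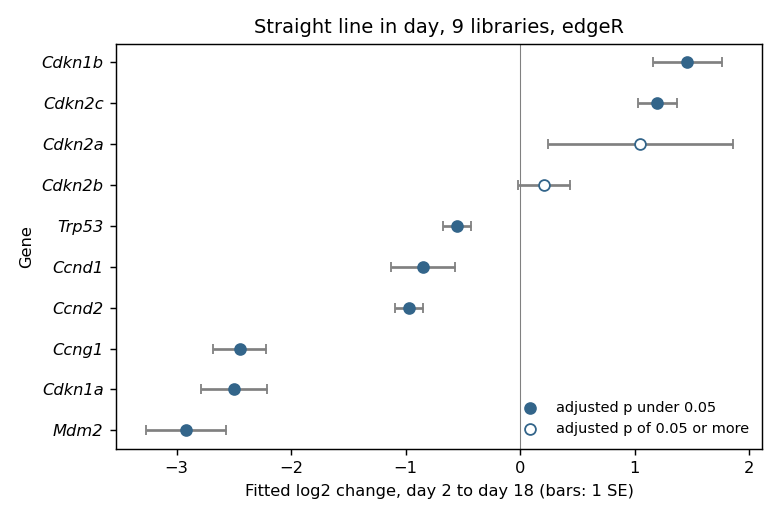
Fitted log2 change from day 2 to day 18 of the 10 genes (x axis, points with bars of 1 SE, edgeR straight line in day over 9 libraries) with genes on the y axis. Filled points had an adjusted p under 0.05: 2 genes lie to the right of 0 and 6 to the left, and the open points are Cdkn2a, with the widest bar, and Cdkn2b.

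Ccnd1 (ENSMUSG00000070348, chr7:152115836-152125774, - strand) encodes cyclin D1, the activator of Cdk4 and Cdk6 that mitogens induce. Its level was 248 TPM on day 2, 310 at day 4, 416 at day 6, 331 at day 8, 201 at day 10, 211 at day 12, 227 at day 14, 213 at day 16 and 226 at day 18. In TPM it peaked on day 6 and was lowest on day 10, and day 18 was nearly back at the level of day 2 (ratio 0.911). In CPM the peak was also that of day 6 (967.5), but the lowest library was day 12 (418.7). The last day, at 433.4 CPM, then lay further below the first, at 582.3 CPM. The low point and the return of Ccnd1 thus depend on the scale, and the line was fitted to counts. The line gave -0.85 (SE 0.28, Benjamini-Hochberg adjusted p = 0.0240 by edgeR) and the spline an adjusted p of 0.000492. The call of the line was lost without day 16 (-0.84, adjusted p = 0.0556 by edgeR). Its counts were not whole in 26 of 27 profiles, and the gene overlaps Oraov1 on the opposite strand (6268 counts over the series); whether strand was used in counting is not given in the sources used here.

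Ccnd2 (ENSMUSG00000000184, chr6:127075797-127101066, - strand), the gene of cyclin D2, declined more steadily. Its level was 325 TPM on day 2, 358 at day 4, 350 at day 6, 294 at day 8, 243 at day 10, 253 at day 12, 232 at day 14, 215 at day 16 and 197 at day 18. The early days (325 to 358 TPM) did not overlap the late ones (197 to 232 TPM), and the log2 change was -0.97 (SE 0.12, Benjamini-Hochberg adjusted p = 0.00011 by edgeR). Which D cyclin was the more abundant changed, with Ccnd1 above Ccnd2 on days 6, 8 and 18 and below it on the other 6 days, but the ratio had no slope past 0.05 (0.26, SE 0.24, exact permutation p = 0.299, adjusted over the 8 ratios p = 0.299). A long noncoding RNA gene on the opposite strand, 9330179D12Rik, overlaps Ccnd2 and had 250 counts over the series.

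The inhibitors of each class were also set against the D cyclins by their summed levels, as a description with no test. The summed level of Cdkn1a and Cdkn1b was 4.14 times that of Ccnd1 and Ccnd2 on day 2, 1.56 times on day 10, at its lowest 1.26 times on day 16 and 1.55 times on day 18. For Cdkn2a, Cdkn2b and Cdkn2c together the ratio to the same cyclins was 0.0638 on day 2, 0.128 on day 10 and 0.158 on day 18. Cdkn1a made up 98.2% of the summed TPM of the 5 inhibitors on day 2 and 87.8% on day 18, with 85.3% on day 16 as its lowest share. These are sums of RNA levels and say nothing of the proteins.

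**Figure D5:**
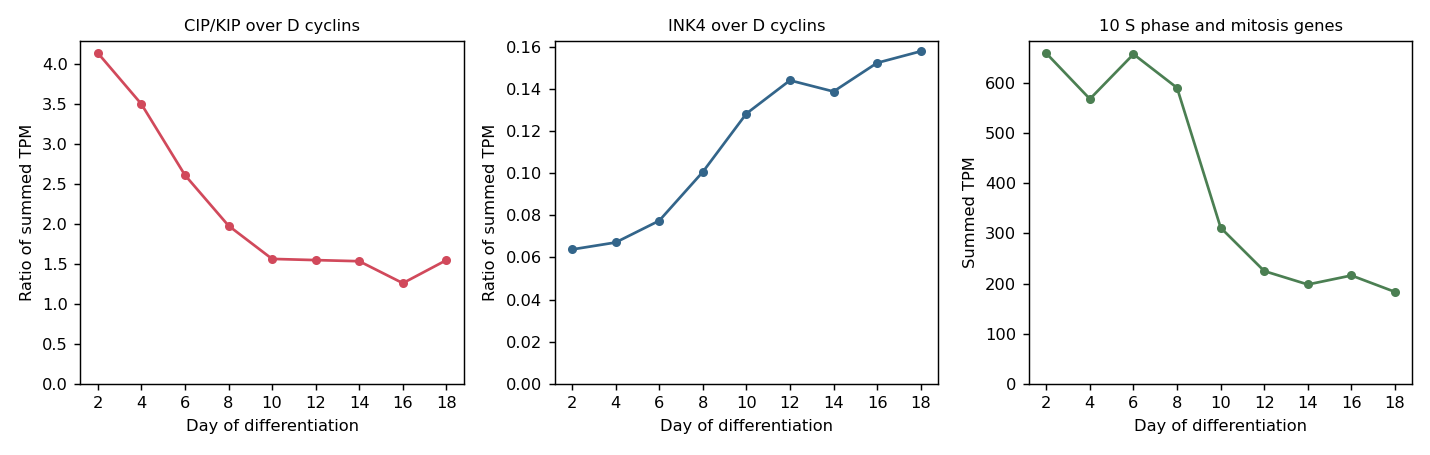
Ratio of the summed TPM of Cdkn1a and Cdkn1b (left) and of Cdkn2a, Cdkn2b and Cdkn2c (middle) to that of Ccnd1 and Ccnd2, and summed TPM of 10 S phase and mitosis genes (right), each against day of differentiation (x axis), 1 point per day. The left ratio falls from 4.14 to 1.55, the middle one rises from 0.0638 to 0.158, and the right sum drops between days 8 and 10, from 590 to 311 TPM.

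By mean TPM over the 9 days the order was Cdkn1a, Ccng1, Ccnd2, Ccnd1, Trp53, Mdm2, Cdkn2b, Cdkn2c, Cdkn1b and Cdkn2a. The higher gene of a pair of neighbours was above the lower on all 9 days for Cdkn1a over Ccng1, Ccnd1 over Trp53, Mdm2 over Cdkn2b, Cdkn2b over Cdkn2c and Cdkn1b over Cdkn2a. The other neighbours changed places: Ccng1 was above Ccnd2 on 4 days (2, 4, 6 and 8), Ccnd2 above Ccnd1 on 6, Trp53 above Mdm2 on 6 and Cdkn2c above Cdkn1b on 7. Apart from Cdkn2a, each gene was at 1 TPM or more on every day, and all 10 were detected on every day.

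Other lists of cell cycle genes moved as follows. All 10 S phase and mitosis genes fell (median log2 change -2.56), beside 26.1% of all genes tested. Their summed level was 568 to 659 TPM on days 2 to 6 and 183 to 216 TPM on days 14 to 18. Birc5, the gene of survivin, which acts in mitosis, fell from 50.1 to 5.70 TPM (-3.24, SE 0.50, Benjamini-Hochberg adjusted p = 0.000417 by edgeR), and Rrm2, a subunit of ribonucleotide reductase, from 145 to 22.1 TPM (-3.21, SE 0.38, adjusted p = 0.000105). The summed level of this list changed little up to day 8, at 590 TPM, by when Cdkn1a had passed from 2368 to 1223 TPM, and both were low from day 10. High levels of Cdkn1a thus stood in the same libraries as high levels of the dividing-cell genes.

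Of 9 other G1 cyclins and kinases, 6 fell, 1 rose and 2 did not pass the test (median -1.06), where 26.1% of all genes fell and 28.3% rose. The E cyclins, which activate Cdk2 at the entry into S phase, had the largest falls, with Ccne1 at -2.34 (SE 0.30, Benjamini-Hochberg adjusted p = 0.000153 by edgeR) and Ccne2 at -1.51 (SE 0.27, adjusted p = 0.000909). Cdk7, of the kinase complex that activates other CDKs, rose (1.34, SE 0.16, adjusted p = 0.000114). Cdk4, the kinase that the INK4 proteins bind, was at 224 TPM on day 2 and 212 TPM on day 18 (-0.23, SE 0.11, adjusted p = 0.107).

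Of 13 retinoblastoma family and E2F genes, 8 fell, 2 rose and 3 did not pass the test (median -0.65), where 26.1% of all genes fell and 28.3% rose. The repressive E2F genes E2f7 (8.36 to 1.45 TPM, -3.25, SE 0.39, Benjamini-Hochberg adjusted p = 0.000113 by edgeR) and E2f8 (-2.30, SE 0.43, adjusted p = 0.00127) fell furthest. Rbl2, which encodes p130, the retinoblastoma relative of resting cells, rose from 14.9 to 43.0 TPM (1.67, SE 0.16, adjusted p = 4.73e-05), as did Tfdp2, a partner of E2F factors (1.02, SE 0.16, adjusted p = 0.000428). Rb1 was at 16.2 TPM on day 2 and 19.6 TPM on day 18, with a fitted change of -0.40 (SE 0.21, adjusted p = 0.125). The spline called it (adjusted p = 0.0101 by edgeR).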

How the data were processed

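Neonatal mouse calvarial cells were profiled by RNA sequencing of amplified cDNA at 9 time points, 27 profiles in all. Reads were mapped by the authors to transcripts of NCBIM37, with Bowtie 0.12.9 and RSEM 1.2.8 named in the submitters' processing notes. The deposited expected counts are estimated counts per gene without normalization, the deposited TPM are scaled to the transcripts of a profile, and the deposited FPKM are fragments per kilobase, used as an alternative. The deposited lengths are RSEM's mean transcript length of a gene, in bases. Symbols came from the GENCODE annotation, which named 37205 of 37991 identifiers.

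TPM were divided by the 75th percentile of values above 0 of their profile and multiplied by the mean percentile (24.0). Counts of the 3 profiles of a day were summed, rounded and fitted with a line or a natural spline (3 degrees of freedom) in day by edgeR 4.0.16 in R 4.3.3 (quasi-likelihood test, filterByExpr at 10 counts, upper-quartile scaling, Benjamini-Hochberg adjusted p under 0.05 over all genes tested). Ratios were tested by exact permutation in Python 3.11.15. Totals per profile were 7331125 to 20888956 counts, and a floor of 3 counts was 0.0484 to 0.134 CPM, for counting error only. The fit was tested on simulated data. The 10 genes, the other lists and the tests were chosen with earlier results of these data known. The text names the 10 genes, from each other list the 2 largest rises and 2 largest falls that passed the test at a mean of at least 1 TPM, and the gene most alike to each. Bax, Tnfrsf10b, Fas, Bbc3, Xpc, Mdm4, Cdk4, Rb1, Atm, Sp7, Spp1, Alpl, Col1a1, Kdr, Ezh1, Cbx7, Kdm6b and Eda2r were added after their values were seen. Alternatives were TMM factors, DESeq2 1.42.0, other filters, single profiles as samples (with a replicate block or none), omission of each replicate or day, early against late days, 2 spline degrees of freedom, TPM or FPKM as deposited and, added after the data were seen, limma 3.58.1 on log2 TPM with a pseudocount of 0.5.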

Additional observations from a re-analysis of the deposited data

How the results depend on the processing

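The 10 genes and their comparisons gave 621 recomputed values, of which 608 held: a tested value stayed on its side of the threshold in the same direction, a level moved by less than 1 SD over the days, and a count of genes stayed within 1.5 times. Of the 621, 140 were mean levels. A mean over 9 days cannot move by 1 SD of those days when 1 day is left out, so the levels with a day left out could not fail. Among the tested values, 194 of 197 fitted changes and 166 of 170 spline values held. The sign of Cdkn2b turned without day 2 (-0.0768; -0.0768 to 0.4581 with any 1 day left out). The line in Ccnd1 was no longer called without day 16 (-0.84) or with limma on log2 TPM (-0.61, adjusted p = 0.0987 by limma), nor its spline with 2 degrees of freedom (adjusted p = 0.0535 by edgeR), nor that of Trp53 without day 2 (adjusted p = 0.0593 by edgeR). The spline of Cdkn2a was called without replicate 3 (adjusted p = 0.0180 by edgeR). Mean levels in deposited FPKM were smaller, since FPKM is a smaller unit here, at 11.2 for Cdkn1b, 25.0 for Cdkn2b, 11.7 for Cdkn2c, 90.3 for Trp53, 172.5 for Ccnd1 and 178.4 for Ccnd2. The cause of these changes, other than the unit, was not tested. Over all alternatives 7 to 8 of the 10 genes followed the line, 8 to 10 the spline, 17 to 19 of the 26 p53 targets fell and all 10 S phase and mitosis genes fell. Cdkn2a was not tested in the line with single profiles as samples or with at least 50 counts required in every library. Genes in all that followed the line numbered 6725 to 10881.

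Deviations of same-numbered profiles from their day did not correlate (mean 0.00604, against -0.00302 for unlike numbers), so the replicate numbers give no pairing. With the 27 profiles as samples and the replicate number as a block, 10881 genes followed the line (10754 without the block). In both, 9 of the 10 genes were tested and 8 followed, since Cdkn2a did not pass the filter. The spline was followed by 12857 genes with all 10, Cdkn2a included (adjusted p = 0.00236 by edgeR). These fits treat lanes of 1 library as samples. Cdkn2a rested on 3 to 28 counts a day, and whether depth set its call was not tested.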

Other observations

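Polycomb proteins silence the Cdkn2a and Cdkn2b locus and Kdm6b removes their mark. Of 13 such genes, Kdm6b counted among them, 7 rose, 3 fell and 3 did not pass the test (median log2 change 0.44), where 28.3% of all genes rose and 26.1% fell. Kdm6b was itself among the 7 that rose (8.66 TPM on day 2 and 10.6 on day 18, 0.44, SE 0.16, adjusted p = 0.0368 by edgeR). The count and the median are thus not of silencing genes alone. Among those with a mean of at least 1 TPM, Cbx6 (8.46 to 35.8 TPM, 2.03, SE 0.37, Benjamini-Hochberg adjusted p = 0.00117 by edgeR) and Ring1 (1.03, SE 0.16, adjusted p = 0.00038), of Polycomb complex 1, had the largest rises, with Ezh1 also at 1.03 (SE 0.22), and Eed (-1.29, SE 0.18, adjusted p = 0.000275) and Suz12 (-0.94, SE 0.16, adjusted p = 0.000828), of Polycomb complex 2, the largest falls. Below that level, Cbx7 went from 0.256 to 1.48 TPM (2.40, SE 0.68, adjusted p = 0.0123). Of 6 ubiquitin ligase genes that act on CIP/KIP proteins or D cyclins, 3 fell, 1 rose and 2 did not pass the test. Of all genes tested, 54.3% were called, so this count is near the general share. Skp2, which targets p27 for degradation, was at 22.3 TPM on day 2, 25.5 at its highest on day 6 and 10.1 on day 18 (-1.50, SE 0.23, adjusted p = 0.000424), Dtl, which targets p21, fell by 2.06 (SE 0.36, adjusted p = 0.000893), and Rnf123, which also targets p27, rose (0.54, SE 0.15, adjusted p = 0.0127).

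The gene whose log2 CPM over the 9 libraries was most like each gene, among 7593 candidates (7594 for Cdkn2a) with a mean of at least 10 TPM, was Psmd14 for Cdkn1a (Pearson r = 0.996), Rsl1d1 for Mdm2 (0.998), Cd44 for Ccng1 (0.999), Ppm1g for Trp53 (0.986), Slpi for Cdkn1b (0.994), Srd5a3 for Cdkn2c (0.976), Agrn for Cdkn2b (0.989), Mrgprf for Cdkn2a (0.941), Pml for Ccnd1 (0.983) and Minpp1 for Ccnd2 (0.995). The points of these descriptions share 9 libraries, a common trend in day and the same depths. Cd44, the hyaluronan receptor, went from 807 TPM on day 2 to 73.2 on day 18, a larger range than that of Ccng1 although the profiles had the same form. Slpi, a secreted protease inhibitor, peaked on day 12 at 121 TPM, the day on which Cdkn1b did. Among the 10 genes r was 0.990 for Cdkn1a with Ccng1, 0.986 for Cdkn1a with Mdm2, 0.989 for Mdm2 with Ccng1, -0.951 for Cdkn1a with Cdkn1b and 0.016 for Ccnd1 with Cdkn2b.

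Among the profiles of a day, 5 of 90 combinations of gene and day had a chi-square p under 0.05, with Cdkn2a on days 10 and 18 and Cdkn1b on days 4 and 8 among them.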
